A study of Homo sapiens with 2 samples.

Results

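The kinesin genes were taken as all gene symbols made of KIF, a number and an optional letter, without antisense names, and 40 of the 33538 genes counted in these Ewing sarcoma cells met that rule. Of these, 39 are kinesin motors, and KIF1BP, now named KIFBP, encodes a protein that binds kinesin motors and is not a motor itself. By textbook function, 13 members were listed as mitotic, 13 as transport motors, 6 as cilium motors and 8 as other members. The level of each gene was compared between 2 established cell lines, CHLA9 and TC71, and along the cell cycle within each of them.

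Kinesins are motor proteins that walk along microtubules or take them apart at their ends, powered by ATP. Transport kinesins carry vesicles, mitochondria and endosomes through the cell and are needed at all times. Mitotic kinesins build the spindle, align the chromosomes and complete cytokinesis, and their transcripts are known to accumulate late in the cell cycle and to fall again after division. Ewing sarcoma is a bone and soft tissue tumour driven by the fusion gene EWSR1-FLI1, and its cell lines divide rapidly.

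One droplet library of unique molecular identifiers (UMIs) was made from each line, with no treatment given in the labels. CHLA9 cultures received IMDM with 20% serum and an insulin, transferrin and selenite supplement, TC71 cultures received RPMI-1640 with 10% serum, and CHLA9 was sequenced on an additional instrument, so line, medium and sequencing cannot be told apart. Barcodes were kept from 5000 UMIs and 2000 genes upward if no more than 15% of the UMIs were mitochondrial, which left 4524 of 5077 CHLA9 barcodes (median 34656 UMIs and 6532 genes) and 1729 of 8468 TC71 barcodes (median 33370 UMIs and 6047 genes). The libraries shared 16 barcodes, of which 3 were among the kept cells. Levels are the UMIs summed over cells and given per 1000000 UMIs of those cells (CPM), with exact 95% Poisson intervals in parentheses. With 1 library per line no difference between the lines was tested, no p-value is given, and all intervals cover counting error only. Each 3' UMI stands for 1 captured transcript and was not divided by transcript length. The Ewing sarcoma markers CD99 (1141 CPM in CHLA9 and 402 CPM in TC71), NKX2-2 (9.89 and 34.6 CPM), NR0B1 (48.1 and 122 CPM), FLI1 (38.2 and 23.0 CPM), STEAP1 (73.2 and 239 CPM) and CCND1 (2510.5 and 1451 CPM) were found in both libraries, whereas PTPRC, PECAM1, LYZ and EPCAM, which mark other cell types, were between 0 and 1.25 CPM.

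A pair of promoter motifs is known from cell cycle genes, the CHR element (TTTGAA or TTCGAA), where MuvB complexes bind, and the CCAAT box, bound by NF-Y. Both were searched on both strands in the 250 bases before the transcript starts that RefSeq gives on GRCh38.p14, where 34 of the 40 members had 43 windows. CHR letters were found in 7 of 14 mitotic windows, 1 of 16 transport windows, 0 of 6 cilium windows and 0 of 7 windows of other members, beside 14.3% of all 35116 windows. CCAAT was found in 10 of 14 mitotic, 5 of 16 transport, 2 of 6 cilium and 3 of 7 other windows, beside 32.0% of all windows. Both motifs were held by 5 of 14 mitotic windows, by 1 of 16 transport windows and by 5.05% of all windows. The 7 mitotic windows with CHR letters belonged to 6 genes (KIF4A, KIF11, KIF15, KIF18A, KIF22 and KIF23), because 2 overlapping windows of KIF22 held the same site. The single transport window with both motifs was that of KIF5B. The 120 bases before the start are given here for 6 mitotic kinesins in which they hold a match and touch no GENCODE exon. Among them are the earliest member (KIF18B) and the latest ones (KIF4A in CHLA9, KIF20A in TC71) in the order given further on. Bases run 5′ to 3′ along the strand of the gene, with matches of either motif in capitals. ATTGG and TTCAAA are CCAAT and TTTGAA read on the other strand.
KIF18B (chr17:44947774-44947893, minus strand): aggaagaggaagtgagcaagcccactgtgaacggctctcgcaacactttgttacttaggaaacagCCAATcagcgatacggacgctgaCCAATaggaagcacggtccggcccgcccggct
KIF11 (chr10:92593010-92593129, plus strand): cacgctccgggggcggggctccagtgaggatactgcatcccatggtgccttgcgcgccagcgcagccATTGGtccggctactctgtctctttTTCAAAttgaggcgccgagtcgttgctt
KIF20B (chr10:89701470-89701589, plus strand): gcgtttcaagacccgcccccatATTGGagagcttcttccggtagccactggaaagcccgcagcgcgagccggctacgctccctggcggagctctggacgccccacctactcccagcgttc
KIF14 (chr1:200620752-200620871, minus strand): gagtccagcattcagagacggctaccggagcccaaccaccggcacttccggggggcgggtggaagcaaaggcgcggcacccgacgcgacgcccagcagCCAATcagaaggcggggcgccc
KIF20A (chr5:138178992-138179111, plus strand): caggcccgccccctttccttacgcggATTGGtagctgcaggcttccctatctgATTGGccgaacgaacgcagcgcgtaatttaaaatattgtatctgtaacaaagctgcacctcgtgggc
KIF4A (chrX:70289984-70290103, plus strand): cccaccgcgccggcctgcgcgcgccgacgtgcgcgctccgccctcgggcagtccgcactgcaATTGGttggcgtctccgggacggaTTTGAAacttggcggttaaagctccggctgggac
KIF18B and KIF20A each held a pair of CCAAT matches here, KIF14 and KIF20B held 1, and KIF11 and KIF4A held 1 CCAAT match followed by 1 CHR match. The CHR match of KIF11 began 28 bases before the start and that of KIF4A 34 bases before it. A match describes these letters and is no evidence of binding, and no match says only that the letters are not in the window.

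To place the members on a common scale, their levels over all kept cells were compared first. The 31 members with a mean of at least 1 CPM over the lines, comprised 11 mitotic, 10 transport, 6 cilium and 4 other members. The highest level belonged to KIF5B, the heavy chain of conventional kinesin found in all tissues, with 280 CPM (278 to 283) in CHLA9 and 261 CPM (257 to 265) in TC71. Mitotic kinesins were nonetheless the larger group in sum, with 1039 CPM in CHLA9 and 757 CPM in TC71, beside 573 CPM and 505 CPM for transport kinesins. The cilium group summed to 53.9 CPM and 41.5 CPM.

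**Figure D1:**
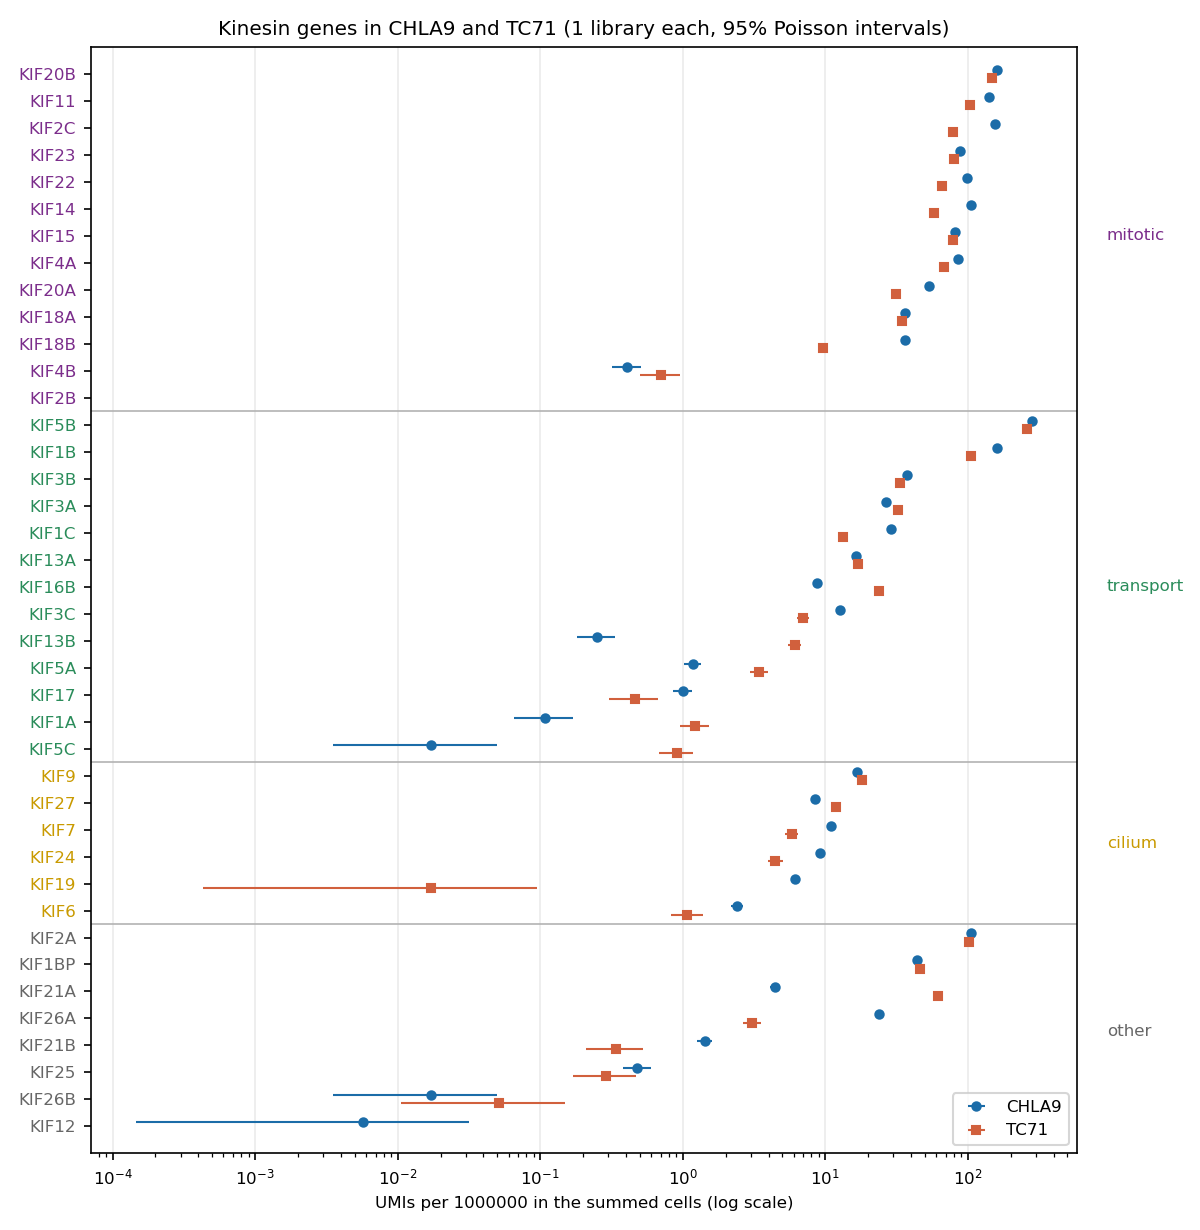
Level of each kinesin gene in CHLA9 (blue circles) and TC71 (orange squares), in UMIs per 1000000 on a log scale, with 95% Poisson intervals, grouped by role. Pairs of points that lie far apart include KIF18B, KIF13B, KIF19, KIF21A and KIF26A and, among the nearly silent members, KIF5C, KIF1A and KIF21B, and values of 0 UMIs (KIF2B in both lines and KIF12 in TC71) are not drawn.

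The 9 members below that mean had at most 1.42 CPM (KIF21B in CHLA9) in either line. KIF2B, a kinesin-13 linked to mitotic spindle function, had 0 UMIs in both lines, which allows up to 0.0171 CPM in CHLA9 and 0.0514 CPM in TC71 (3 counts per library). The summed depth was 174975302 UMIs in CHLA9 and 58355173 in TC71, so raw counts of the lines cannot be compared directly. KIF12 had 1 UMI in CHLA9 and 0 in TC71, and KIF26B had 3 in each (0.0171 and 0.0514 CPM). Motors known from neurons were also low. KIF1A had 19 UMIs in CHLA9 and 71 in TC71 (0.109 and 1.22 CPM), and KIF5C 3 and 53 (0.0171 and 0.908 CPM). KIF21B had 249 and 20 UMIs (1.42 and 0.343 CPM), and KIF17 175 and 27 (1.00 and 0.463 CPM). KIF25 had 84 and 17 UMIs (0.480 and 0.291 CPM). KIF4B, a near-identical copy of KIF4A, had 71 and 41 UMIs, or 0.406 CPM in CHLA9 and 0.703 CPM in TC71. Reads of that pair cannot be assigned with certainty, so both of their levels are uncertain.

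Among mitotic kinesins, the levels were of the same order in the lines, and the largest difference was that of KIF18B. KIF18B, which controls the length of astral microtubules, lies on chromosome 17 (44924709 to 44947773, minus strand, GENCODE 44 on GRCh38). It was at 36.2 CPM (35.4 to 37.1) in CHLA9 and 9.65 CPM (8.87 to 10.5) in TC71, a 3.76-fold difference (log2 1.91, interval 1.78 to 2.04). KIF18A, its relative that dampens chromosome movement at kinetochores, was at 36.3 CPM in CHLA9 and 34.6 CPM in TC71 (log2 0.07, with an interval that touches 0 at its lower end). The paralogs thus stood at about the same level in CHLA9, and KIF18B was the lower of the pair in TC71.

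The microtubule depolymerase KIF2C (MCAK), which corrects faulty attachments at centromeres, reached 154 CPM in CHLA9 against 79.0 CPM in TC71 (log2 0.97). KIF14, which acts with citron kinase in cytokinesis, had 105 and 58.1 CPM (log2 0.86), and KIF20A (MKLP2), which brings Aurora B to the midzone, had 53.3 and 31.5 CPM (log2 0.76). The chromokinesin KIF22 was at 98.2 and 66.1 CPM (log2 0.57). All 4 therefore stayed under a 2-fold difference. KIF11 (Eg5), the motor that slides antiparallel microtubules apart to make the spindle bipolar, had 140 and 103 CPM (log2 0.44), and KIF15, which helps it to hold the bipolar spindle, had 81.8 and 78.4 CPM (log2 0.06). The chromokinesin KIF4A had 84.9 and 67.8 CPM (log2 0.32). Of the remaining cytokinesis motors, the centralspindlin subunit KIF23 (MKLP1) had 88.1 and 80.0 CPM (log2 0.14), and KIF20B, which acts late in abscission and was the most abundant mitotic member, had 161 and 148 CPM (log2 0.12).

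Over the 11 mitotic kinesins with a mean of at least 1 CPM, the median difference (log2 CHLA9 over TC71) was 0.44, and over the 10 transport kinesins it was 0.03, beside a median of 0.21 over all 12837 genes with the same mean. All 11 mitotic values were above 0 as scaled by the library total. When the lines were scaled to a median ratio of 1 over genes instead, which lowers each log2 value by 0.21, KIF15, KIF18A, KIF20B and KIF23 fell below 0 and the mitotic median was 0.23.

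Transport kinesins differed between the lines in both directions. KIF1B, a carrier of mitochondria and synaptic vesicle precursors, was at 159 CPM in CHLA9 and 104 CPM in TC71 (log2 0.61). KIF1C, which supports vesicle and adhesion traffic, was at 28.8 and 13.4 CPM (log2 1.11). KIF3C, a kinesin-2 subunit, was at 12.7 and 7.03 CPM (log2 0.86). These 3 were higher in CHLA9, and 3 others were at least 2-fold higher in TC71. KIF16B, which binds early endosomes, was at 8.69 CPM in CHLA9 and 23.7 CPM in TC71 (log2 -1.45). KIF5A, the neuronal relative of KIF5B, was at 1.18 and 3.43 CPM (log2 -1.54). KIF13B, a carrier of membrane proteins, had 44 UMIs or 0.251 CPM (0.183 to 0.338) in CHLA9 and 357 UMIs or 6.12 CPM (5.50 to 6.79) in TC71 (log2 -4.60, interval -5.09 to -4.15), so it passed the mean of 1 CPM through TC71 alone. Its relative KIF13A did not share the difference, with 16.5 and 17.0 CPM (log2 -0.05). KIF3A and KIF3B, which together form the heterotrimeric kinesin-2 of transport and ciliary traffic, had 26.8 and 32.6 CPM (log2 -0.28) and 37.2 and 33.2 CPM (log2 0.16).

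Counted against a 2-fold limit, 6 of the 31 members were higher in CHLA9 (KIF18B, KIF1C, KIF19, KIF6, KIF24 and KIF26A), beside 18.7% of all genes, and 4 were higher in TC71 (KIF13B, KIF16B, KIF5A and KIF21A), beside 12% of all genes. These shares of the members are near the background in both directions. With the median ratio scaling the split was 3 higher in CHLA9 and 4 in TC71, since KIF1C (log2 0.90), KIF6 (log2 0.95) and KIF24 (log2 0.84) were then under 2-fold. KIF24 also missed the limit when the phases of each line were given equal weight (log2 0.89).

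Beside KIF13B, the widest differences among members with a mean of at least 1 CPM were those of KIF19, KIF21A and KIF26A. KIF19 is a kinesin-8 that sets the length of motile cilia and lies on chromosome 17 (74326210 to 74355820, plus strand). It had 1072 UMIs in CHLA9, or 6.13 CPM (5.77 to 6.50), and 1 UMI in TC71, a ratio of 358 on the linear scale with a log2 counting interval of 6.0 to 13.79. At full depth 12.6% of CHLA9 cells held a KIF19 UMI, and 0.0578% of TC71 cells did, at median depths of 34656 and 33370 UMIs. KIF19 thus passed the mean of 1 CPM through CHLA9 alone.

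KIF21A, a kinesin-4 that curbs microtubule growth at the cell cortex, lies on chromosome 12 (39293228 to 39443390, minus strand). It was at 4.43 CPM (4.12 to 4.75) in CHLA9 and 62.0 CPM (60.0 to 64.1) in TC71, a 14-fold difference (log2 -3.81, interval -3.92 to -3.70). After each cell was thinned to 5000 UMIs, 2.30% of CHLA9 cells and 27.8% of TC71 cells held a KIF21A UMI. Without thinning the shares were 12.7% and 79.7%. The opposite pattern was seen for KIF26A on chromosome 14 (104136454 to 104180894, plus strand), an unusual kinesin that binds microtubules without ATPase activity, with 23.9 CPM (23.2 to 24.7) in CHLA9 and 3.08 CPM (2.65 to 3.57) in TC71 (log2 2.96, interval 2.74 to 3.18). KIF24, which restrains the start of cilium growth, was at 9.21 and 4.47 CPM (log2 1.04), and KIF6, a motile cilium motor, at 2.41 and 1.08 CPM (log2 1.16). KIF9, KIF7 and KIF27 of the cilium group and KIF2A and KIF1BP of the other members were within 2-fold, with log2 values between -0.50 and 0.92.

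To ask when each kinesin is expressed, the cells of each line were given a phase from the S and G2M gene lists of Seurat. The 4 kinesins these lists hold (KIF2C, KIF11, KIF20B and KIF23) had been taken out, so that no member was in a scored list. Members stayed in the counts from which the scores draw their control genes. In CHLA9, 20.5% of cells (95% Clopper-Pearson interval 19.4 to 21.7) were placed in G1, 40.3% (38.9 to 41.8) in S and 39.1% (37.7 to 40.6) in G2M. In TC71 the shares were 14.7% (13.1 to 16.5), 45.2% (42.8 to 47.6) and 40.1% (37.8 to 42.4). Scores are relative to the other cells of the same library, so a G1 cell of one line is not matched to a G1 cell of the other.

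The mitotic kinesins were higher in G2M than in G1 in both lines, and transport kinesins were mostly level. At a 1.5-fold limit, 13 of 31 members were higher in G2M in CHLA9, beside 6.32% of all genes, namely the 11 mitotic kinesins, KIF5B and KIF24. In TC71, 12 of 30 members with UMIs in both phases were higher in G2M, beside 6.75% of all genes, namely the 11 mitotic kinesins and KIF5A. The value of KIF5A in TC71 was log2 0.65 with an interval that spans 0 (-0.06 to 1.42), it was past the limit in 5 of 10 alternative settings, and in CHLA9 it was -0.56 (-1.06 to -0.05). KIF19 alone was higher in G1, in CHLA9, beside 4.19% of all genes, and 0 members were in TC71, beside 2.33%. The median log2 G2M over G1 of the mitotic kinesins was 2.43 in CHLA9 and 1.19 in TC71, that of transport kinesins was 0.03 and 0.28, and that of all genes 0.01 and 0.07. G2M cells were also deeper, with a median of 40199.5 UMIs against 29582 in G1 in CHLA9 and of 36436 against 30587 in TC71. When cells were thinned to 5000 UMIs before scoring, the mitotic medians were 2.57 and 1.5.

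The highest G2M excess in CHLA9 was that of KIF14, with 24.0 CPM in G1, 46.1 CPM in S and 191 CPM in G2M (log2 G2M over G1 2.99, interval 2.89 to 3.11). In TC71 its levels were 28.0, 26.3 and 99.4 CPM (log2 1.83, interval 1.63 to 2.04). In cells thinned to 5000 UMIs, 9.36% of CHLA9 G1 cells and 55.3% of CHLA9 G2M cells held a KIF14 UMI, and 13.7% and 36.2% did in TC71. KIF23 followed, with 19.3, 52.1 and 148 CPM in CHLA9 (log2 2.94, interval 2.81 to 3.06) and 34.6, 42.4 and 132 CPM in TC71 (log2 1.93, interval 1.75 to 2.12). Its intervals overlapped those of KIF14 in both lines. Both act in cytokinesis, the last step of division.

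The kinetochore motor KIF18A rose from 9.15 CPM in G1 to 62.5 CPM in G2M in CHLA9 (log2 2.77) and from 18.8 to 53.7 CPM in TC71 (log2 1.52). For KIF18B the levels were 7.93 and 53.6 CPM in CHLA9 (log2 2.76) and 5.83 and 12.5 CPM in TC71 (log2 1.10, interval 0.65 to 1.59). The TC71 values came from 45 UMIs in G1 and 315 UMIs in G2M. KIF20A rose from 16.9 to 100 CPM (log2 2.57) and from 17.0 to 52.6 CPM (log2 1.63). KIF2C had 47.6 and 257 CPM in CHLA9 (log2 2.43) and 44.6 and 125 CPM in TC71 (log2 1.49). The G2M levels of all 4 were lower in TC71 than in CHLA9.

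The spindle motor KIF11 rose from 41.6 to 214 CPM in CHLA9 (log2 2.36) and from 64.5 to 147 CPM in TC71 (log2 1.19), and KIF15 from 27.8 to 116 CPM (log2 2.06) and from 54.4 to 104 CPM (log2 0.93). KIF20B had 72.8 and 233 CPM (log2 1.68) and 119 and 189 CPM (log2 0.67), and KIF22 had 49.5 and 141 CPM (log2 1.51) and 53.5 and 84.3 CPM (log2 0.65), the smallest excess of the mitotic members in TC71. With the median ratio scaling KIF22 was under 1.5-fold in TC71, where 10 members then passed the limit. In contrast, KIF4A had the same excess in both lines, from 62.6 to 126 CPM in CHLA9 (log2 1.01) and from 46.7 to 94.9 CPM in TC71 (log2 1.02). It was the smallest mitotic excess in CHLA9, with a G1 level above its S level of 49.2 CPM.

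**Figure D2:**
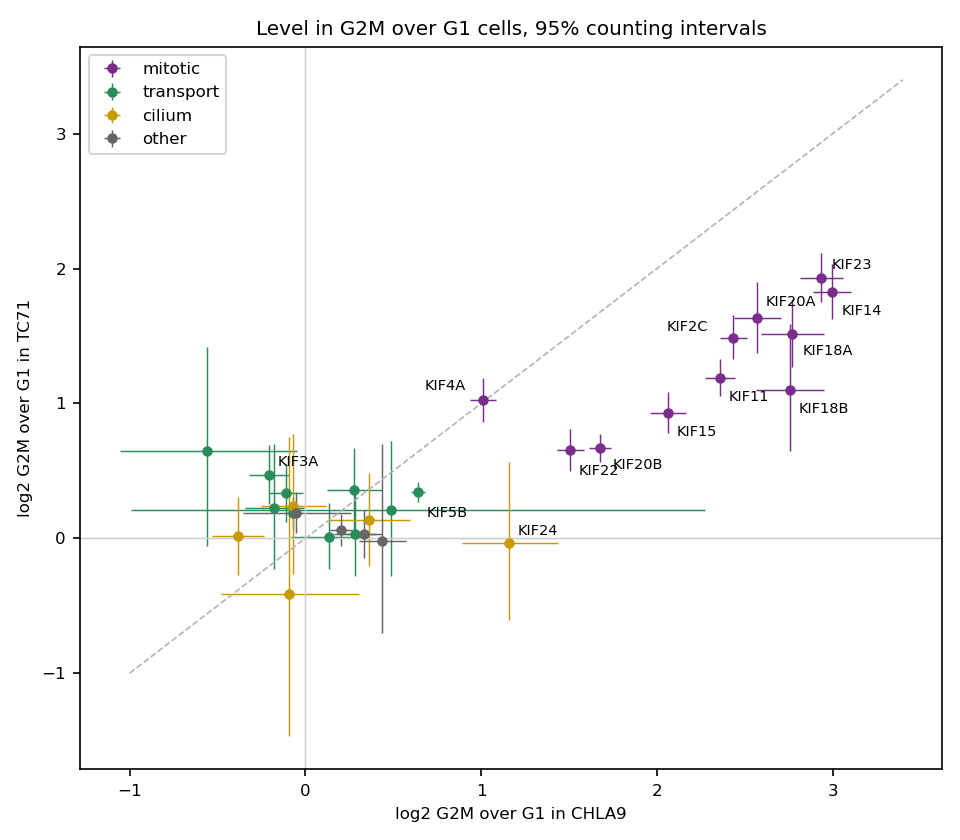
Log2 of the level in G2M cells over that in G1 cells, CHLA9 on the x axis and TC71 on the y axis, for the 30 members with a mean of at least 1 CPM and UMIs in both phases of both lines, coloured by role, with 95% counting intervals and a dashed line of equality. Mitotic kinesins lie to the right of 1 in CHLA9, and 10 of them lie below the dashed line while KIF4A lies on it.

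The smaller ratio in TC71 was not particular to kinesins. CCNA2 and CCNB1, cyclins of S and G2M that were not used for scoring, had log2 G2M over G1 values of 2.45 and 1.98 in CHLA9 and of 1.05 and 1.05 in TC71. In G1 cells, 8 of the 11 mitotic kinesins were at a higher level in TC71 and 3 in CHLA9, of which 5 and 1 had intervals that were apart, with a median log2 CHLA9 over TC71 of -0.22 beside 0.21 over all genes. The largest G1 differences towards TC71 were those of KIF18A (log2 -1.04), KIF15 (log2 -0.97) and KIF23 (log2 -0.84). Barcodes under 5000 UMIs, which can hold free RNA, numbered 277 in CHLA9 and 5869 in TC71, and their part in these G1 levels was not tested. In S cells 10 of 11 were higher in CHLA9 (median 0.30 beside 0.23 over all genes), and in G2M cells 11 of 11 were (median 0.54 beside 0.18). The ratio of S to G1 also differed between the lines, and it has the same G1 levels as its base, so it is not a separate result. In CHLA9, 8 of the 11 mitotic kinesins were already at least 1.5-fold higher in S than in G1, beside 5.19% of all genes, and KIF18B led with log2 1.88. In TC71, 0 of 11 were, beside 3.15% of all genes, and the highest value, again of KIF18B, was log2 0.45. The log2 S over G1 of CCNA2 was 1.23 in CHLA9 and 0.20 in TC71, and that of CCNB1 was -0.54 and -0.44.

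For a finer course, the cells of each line were ordered by the angle of their S and G2M scores and cut into 10 bins of equal cell number, in which bin 1 held G1 cells, bins 2 to 5 mainly S cells, bin 6 S and G2M cells, bins 7 to 9 G2M cells and bin 10 both G2M and G1 cells. The order was checked on genes outside the scoring lists. The G1/S cyclin CCNE1 was highest in bin 4 in CHLA9 and bin 3 in TC71, and the replication licensing gene CDT1 in bins 5 and 4. CCNA2 was highest in bin 8 of both, CCNB1 in bins 8 and 9, PLK1 in bin 8 of both and PTTG1 in bins 9 and 10. The check is weaker in TC71, where all these genes had smaller ranges over the bins. The smallest were those of PTTG1 (1.35-fold, 3.35-fold in CHLA9) and CDT1 (1.54-fold, 2.18-fold in CHLA9). In CHLA9 the highest bin of all 11 mitotic kinesins was at least 3-fold above the lowest, as it was for KIF13B on 44 UMIs, beside 5.8% of all genes. In TC71 the same held for 6 mitotic kinesins (KIF2C, KIF14, KIF18A, KIF18B, KIF20A and KIF23), for KIF5A and for KIF6 on 63 UMIs, beside 8.7% of all genes.

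KIF14 had the widest range in both lines, from 16.5 CPM in bin 1 to 232 CPM in bin 8 of CHLA9 (14.1-fold) and from 16.9 CPM in bin 2 to 114 CPM in bin 8 of TC71 (6.75-fold). KIF20A ran from 8.86 to 122 CPM in CHLA9 (13.8-fold) and from 10.2 to 62.4 CPM in TC71 (6.11-fold). Next came KIF23 with 10.7-fold and 5.82-fold and KIF2C with 10.2-fold and 4.76-fold. These 4 cytokinesis and centromere motors had the widest ranges of the mitotic kinesins in both lines. The narrowest mitotic ranges were those of KIF22 (3.79-fold) and KIF4A (3.83-fold) in CHLA9 and of KIF20B (1.94-fold) and KIF22 (2.13-fold) in TC71.

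**Figure D3:**
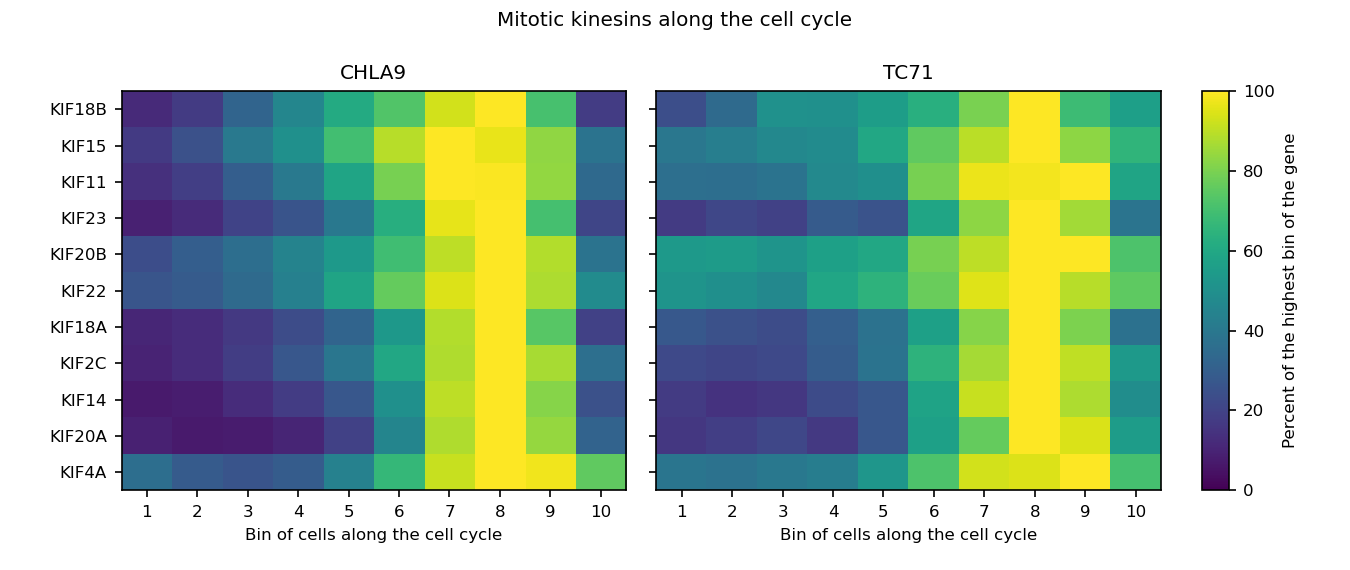
Level of the 11 mitotic kinesins in 10 bins of cells along the cell cycle in CHLA9 (left) and TC71 (right), as a percent of the highest bin of each gene. The columns brighten from bin 6 and peak in bins 7 to 9 in both lines, and the early bins are darker in CHLA9 than in TC71.

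The mitotic kinesins peaked in bins 7 to 9 and shared nearly the same course. Their highest bin was 8 to 10 in 9 of 11 members in CHLA9, beside 36.4% of all genes, with KIF11 and KIF15 in bin 7, and in 11 of 11 in TC71, beside 37.5%. Over the 10 bins, Pearson's r between pairs of mitotic kinesins had a median of 0.96 in CHLA9 and 0.97 in TC71 (55 pairs, from the same cells and bins). Among transport kinesins the median r was -0.04 in CHLA9 and 0.44 in TC71 (45 pairs).

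Within this shared course, the mean position over the bins separated earlier from later members. In CHLA9, KIF18B came first at 6.90 (interval 6.82 to 6.97), with KIF15 at 6.94 (6.88 to 7.0), and KIF11 followed at 7.16. KIF23 (7.30), KIF20B (7.35), KIF22 (7.36), KIF18A (7.47), KIF2C (7.55) and KIF14 (7.62) lay in the middle. KIF20A was at 7.82 (7.78 to 7.86) and KIF4A last at 8.03 (7.98 to 8.09). Thus by mean position in CHLA9 the spindle motors KIF15 and KIF11 and the astral motor KIF18B came before the midzone motors KIF20A and KIF4A. KIF4A was highest in bin 8, and its mean also reflects the 104 CPM it still had in bin 10. The order did not follow function throughout, since the cytokinesis motors KIF23 (7.30) and KIF20B (7.35) came before the centromere motor KIF2C (7.55). The intervals of 5 of the 10 neighbouring pairs overlapped, among them KIF18B and KIF15 and each step from KIF23 to KIF2C, and those orders are not resolved.

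In TC71 the same 3 members came first, KIF18B at 7.31 (6.88 to 7.75), KIF15 at 7.58 (7.42 to 7.73) and KIF11 at 7.65 (7.55 to 7.76). KIF20A came last at 8.0 (7.88 to 8.11). KIF4A, the last in CHLA9, was at 7.87 (7.73 to 8.01), and its interval overlapped those of KIF18B, KIF15 and KIF11. The intervals of all 10 neighbouring pairs overlapped in this smaller library, so only distant members were apart, such as KIF15 and KIF20A. Spearman's rho between the orders of the lines was 0.79 over the 11 genes, given as a description. Under the 10 alternative settings of scoring, cells and bins that were compared, the first 3 were the same in 10 in CHLA9 and in 8 in TC71, and KIF20A was among the last 2 in 10 of 10 in each line. KIF20B was the fifth in CHLA9 and the tenth in TC71 (7.89, interval 7.75 to 8.03), and its place in TC71 moved with the scoring, to the sixth with cells thinned to 5000 UMIs.

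**Figure D4:**
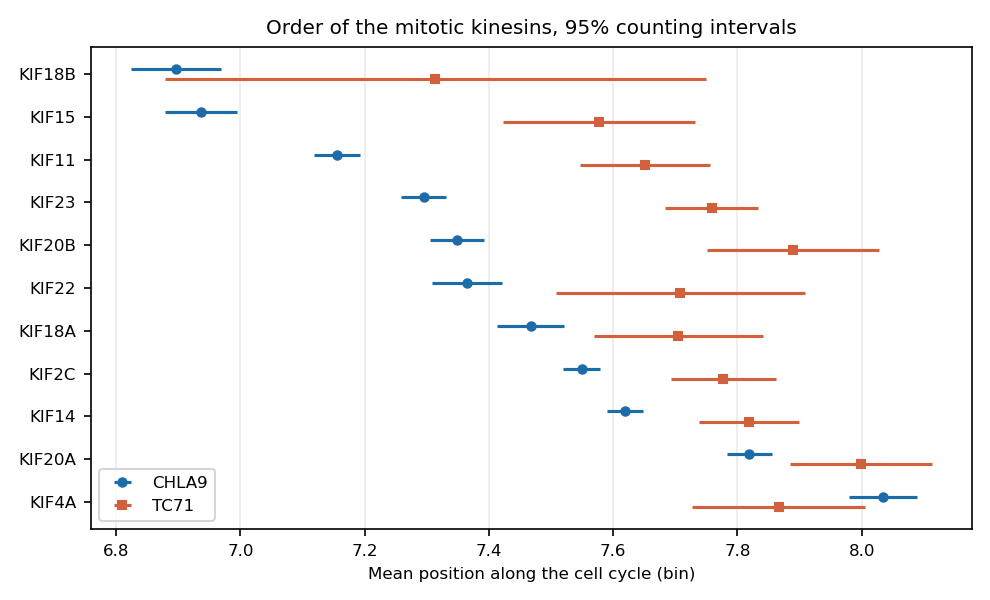
Mean position of the 11 mitotic kinesins along the cell cycle (x axis, in bins from 1 to 10) in CHLA9 (blue circles) and TC71 (orange squares), with 95% counting intervals, sorted by the CHLA9 order. KIF18B, KIF15 and KIF11 are the earliest in both lines, and the TC71 intervals are wider and overlap.

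Most non-mitotic kinesins stayed under the 1.5-fold limit between G2M and G1, and the courses of those that varied are given here. KIF5B was highest in bin 8 of CHLA9 (376 CPM, against 197 CPM in bin 3, 1.91-fold) and in bin 9 of TC71 (317 CPM, against 214 CPM in bin 2, 1.48-fold), with log2 G2M over G1 of 0.64 and 0.34. Although a transport motor, KIF5B thus peaked in the same bins as the mitotic kinesins, with a smaller range. Of 10 transport kinesins, 2 in CHLA9 and 6 in TC71 were highest in bins 8 to 10, beside 36.4% and 37.5% of all genes. Most of these peaks were not resolved from other bins. Counting the highest bin itself, intervals overlapped that bin in 2 bins for KIF5B and in 8 for KIF16B in CHLA9. In TC71 they did so in 3 bins for KIF5B and in 6 to 10 for KIF3B, KIF5A, KIF13A, KIF13B and KIF3C. The promoter window of KIF5B held both CHR and CCAAT letters, as did 5.05% of all windows. A link between these letters and its course was not tested.

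KIF24 rose from 4.43 CPM in bin 1 to 12.5 CPM in bin 6 of CHLA9 and returned to 4.29 CPM in bin 10. The intervals of bins 7 and 8 (11.8 and 10.7 CPM) overlapped that of bin 6, so an earlier peak bin than those of the mitotic kinesins is not resolved. Its mean position was 5.74 (5.49 to 5.99), before that of KIF18B at 6.90 (6.82 to 6.97). In TC71 it stayed between 3.58 and 5.63 CPM, on 261 UMIs. The intervals of the lines were apart in 7 of 10 bins and overlapped in bins 1, 2 and 10. Bins were cut within each line and are not matched between them, and bin 2 held 35.4% G1 cells in CHLA9 and 0% in TC71.

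KIF19 took the opposite course in CHLA9, where it was between 8.32 and 8.85 CPM in bins 2 to 5 and between 3.63 and 3.95 CPM in bins 6 to 8. Its log2 G2M over G1 was -0.89 (interval -1.15 to -0.64). KIF9, another cilium motor, was also lowest in bin 8 in CHLA9, with 21.4 CPM in bin 2 and 13.0 CPM in bin 8 (log2 G2M over G1 -0.38), while its value in TC71 was 0.02 (interval -0.27 to 0.31).

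**Figure D5:**
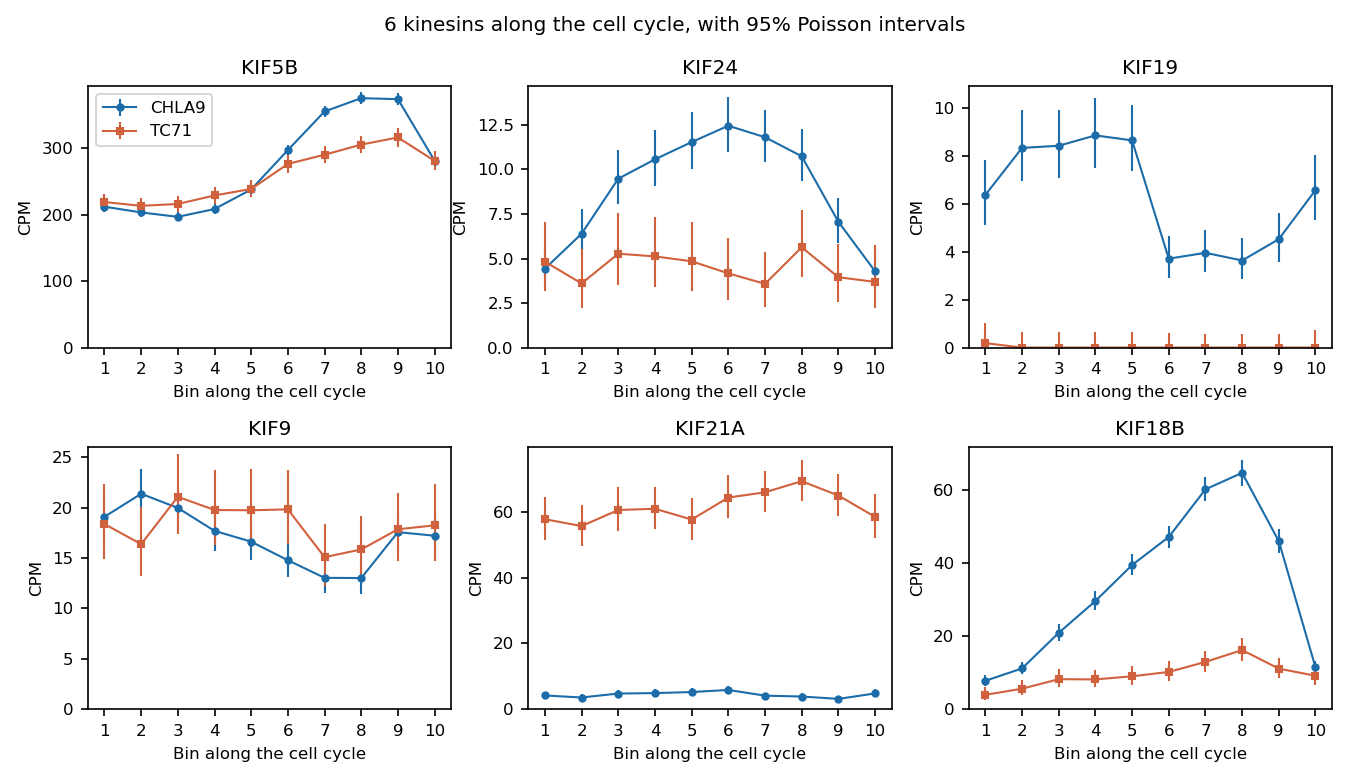
Level (CPM, linear axes from 0) of KIF5B, KIF24, KIF19, KIF9, KIF21A and KIF18B in 10 bins along the cell cycle in CHLA9 (blue circles) and TC71 (orange squares), with 95% Poisson intervals. KIF24 rises in CHLA9 and stays between 3.58 and 5.63 CPM in TC71, KIF18B rises to 64.6 CPM in CHLA9 and to 16.1 CPM in TC71, KIF19 falls from bin 6 in CHLA9, and KIF21A is apart between the lines in every bin.

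The large differences between the lines were also read along the cycle, although a bin of one line is not matched to the same bin of the other. KIF21A was between 3.11 and 5.83 CPM in the bins of CHLA9 and between 55.8 and 69.5 CPM in those of TC71, and KIF26A was between 18.0 and 30.2 CPM and between 2.41 and 4.00 CPM. The intervals of the lines were apart in 10 of 10 bins for both genes, and likewise for KIF13B, KIF16B and KIF1C. KIF18B was different, since it was low in both lines in bin 1 (7.75 and 3.90 CPM) and in bin 10 (11.4 and 9.12 CPM) and apart most at its peak in bin 8 (64.6 and 16.1 CPM). Its intervals were apart in 9 of 10 bins. In G1 cells its log2 CHLA9 over TC71 was 0.44, in S cells 1.88 and in G2M cells 2.10.

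Motors and partners outside the symbol rule were read in the same way. Of 15 such genes 14 had a mean of at least 1 CPM (the light chain gene KLC3 did not). KIFC2, a minus-end motor, was at least 2-fold higher in CHLA9 (10.1 and 4.64 CPM, log2 1.12), and its relative KIFC3 in TC71 (14.3 and 33.0 CPM, log2 -1.21). Of the 10 that are not in the scoring lists, 4 were at least 1.5-fold higher in G2M in each line, beside 6.32% and 6.75% of all genes. They were the minus-end spindle motor KIFC1 (log2 2.68 in CHLA9 and 1.27 in TC71), RACGAP1, the centralspindlin partner of KIF23 (2.47 and 1.59), PRC1, the midzone bundler that recruits KIF4A (1.91 and 0.92), and the mitotic kinase PLK1 (2.47 and 1.38). CENPE, TPX2, AURKA and AURKB helped to place the cells, so their phase values are not given. The light chains KLC1, KLC2 and KLC4, which join cargo to KIF5B, and KIFAP3, which binds KIF3A and KIF3B, had log2 G2M over G1 values between -0.03 and 0.35.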

How the data were processed

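Droplet 3' single-cell libraries (10x Genomics kit v3.1) of CHLA9 and TC71 were analysed. The authors made the deposited counts, raw UMIs per gene and barcode without normalization, with Cell Ranger 3.1.0 on hg38. Summed depth was 174975302 UMIs over the kept CHLA9 cells and 58355173 over those of TC71, and 0 columns of other samples were used. Phases were scored with Seurat 5.3.0 in R 4.3.3 on genes detected in at least 10 cells, and doublets with Scrublet through scanpy 1.11.5, which called 7.74% of CHLA9 and 0.694% of TC71 cells and removed none. Tables and intervals were made with numpy 2.4.6, pandas 2.3.3 and scipy 1.17.1, and coordinates came from GENCODE 44, where exons of KIF1B and KIF2A share 293 and 331 bases with other genes of the same strand that the deposited counts do not list.

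Cells were ordered from an angle of -135 degrees, and the mean position was the circular mean of the bins weighted by CPM, with a Poisson interval by the delta method. Ratios had exact conditional intervals. Members, role lists and limits were chosen with earlier results of these data known. The text names all mitotic and transport members with a mean of at least 1 CPM, cilium and other members past a limit, and others by their UMI counts, and a few more are named for context. Amino acid sequences were not used here. The interval, phase and position steps were tested on simulated data. Alternatives covered scaling, cell filters, doublets, scoring lists, depth, seed, bins and the filter on levels. A shift of over 0.1 in a log2 value, or of over 1 bin in a peak, was taken as a move.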

Additional observations from a re-analysis of the deposited data

Results flagged for a closer look

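KIF1B, KIF3A and KIF3B, all transport kinesins, had opposite signs of log2 G2M over G1 in the lines, with intervals that leave out 0 in both. KIF5A and KIF3C also had opposite signs, with intervals that span 0 in TC71. KIF1B was at -0.069 in CHLA9 and 0.19 in TC71. Over 10 alternative settings its CHLA9 value ran from -0.086 to 0.0003, so its sign there did not hold. KIF3A was at -0.21 and 0.47, and its partner KIF3B at -0.11 and 0.33. Their CHLA9 values ran from -0.22 to -0.05 and from -0.12 to -0.07 over these settings. Whether the lines differ here was not tested with 1 library of each.

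Barcodes under 5000 UMIs, which entered no comparison, also held mitotic kinesin UMIs. Their summed level was 548 CPM (495 to 605) over 277 CHLA9 barcodes, beside 1039 CPM in the kept cells, and 661 CPM (644 to 678) over 5869 TC71 barcodes, beside 757 CPM.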

How the results depend on the processing

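No paired analysis was possible because both lines came as a single library without replicate numbers to match. Over the summary results, 83 alternatives stayed within the limits and 13 moved, none of them reversed in sign among called values. With the median ratio scaling, 3 members were 2-fold higher in CHLA9 in place of 6, the mitotic median log2 CHLA9 over TC71 was 0.23 and the transport median -0.18. Equal weight for the phases gave a mitotic median of 0.33. With a mean of at least 5 CPM, 2 members were higher in TC71 in place of 4 and the transport median was 0.13, and with no filter on levels 7 members were higher in TC71, because fewer or more genes were tested. The mitotic median log2 G2M over G1 in CHLA9 was 2.58 with all genes scored, 2.57 with cells thinned to 5000 UMIs and 2.56 without the top 8% of Scrublet scores. In TC71 it was 1.30 with the kinesins kept in the scoring lists, 1.5 with thinned cells and 1.36 with at most 10% mitochondrial UMIs. The cause of these shifts in the medians was not tested. Spearman's rho of the mitotic order between the lines, added after seeing the data, ran from 0.76 to 0.89. Among single genes, 1251 alternatives stayed and 172 moved, of which 91 were peak positions. KIF5A was past 1.5-fold in TC71 in 5 of 10 settings. Leaving out a replicate could not be done.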
